A study of Mus musculus with 6 samples.

Results

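Slpi, 1 of the 32285 genes listed in each count matrix of this mouse kidney series, was taken as the row with that symbol. It was chosen by its measured level in the early treated 5m AS library and by its correlations over spots, so its levels, its share of positive spots and the genes that go with it are descriptions, with no test. RNA was captured on 10x Genomics Visium slides, on which each barcoded spot collects the RNA of a small region of a kidney cryosection, and was counted as unique molecular identifiers (UMIs). A spot can hold several cells, so it is not a cell. There were 6 libraries, 1 for each group, and no group had a replicate.

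The WT library was a B6C57 kidney. The 2m AS and 5m AS libraries were untreated kidneys with the genotype B6.Cg-Col4a5tm1Yseg, at 2 and 5 months. This line models Alport syndrome, a disease of the type IV collagen network of the glomerular basement membrane. The libraries named early and late treated 5m AS had the same genotype, the same age of 5 months and hEV treatment. The mixed female library is labelled as WT female and heterozygous female kidney with both genotypes, and was kept as 1 sample. What hEV stands for, its dose, when early and late treatment took place, and the ages of the WT and mixed female animals are unknown here.

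Secretory leukocyte protease inhibitor, the product of Slpi, is a small secreted protein built of whey acidic protein (WAP) domains. It blocks the serine proteases that neutrophils release, above all neutrophil elastase and cathepsin G, and it protects progranulin from being cut by elastase. It is best known from the epithelia of mucosal surfaces, neutrophils and activated macrophages, where it also dampens NF-kB signalling. Plasma cells, which recur below, are the antibody-secreting end stage of B cells and carry very large amounts of immunoglobulin transcripts.

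Slpi (ENSMUSG00000017002) is a protein-coding gene on the minus strand of chr2:164354070-164389095 in mm10 (GRCm38), in the GENCODE M21 annotation. Its transcript Slpi-201 has 4 exons in chr2:164354070-164356507, and the longer gene span comes from the transcript Slpi-203, which starts farther upstream. The RefSeq promoter table (GRCm38.p6) holds the 250 bases before the start of the shorter span, chr2:164356508-164356757 on the minus strand. They are printed because Slpi varied with immunoglobulin genes over spots, and short motifs known from immunoglobulin and interferon-driven promoters were looked for in them. Capitals mark the only match found.

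Slpi promoter: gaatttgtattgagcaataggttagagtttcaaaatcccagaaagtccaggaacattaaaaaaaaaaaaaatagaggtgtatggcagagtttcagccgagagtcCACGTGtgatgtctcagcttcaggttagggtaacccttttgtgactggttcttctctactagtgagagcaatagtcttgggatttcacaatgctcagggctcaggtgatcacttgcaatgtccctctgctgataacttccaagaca

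The capitals are an E-box (CACGTG, the same on both strands), which begins 146 bases before the start. It occurs in 6.02% of the 32841 promoters of the same length. Searched on both strands, the octamer ATGCAAAT of immunoglobulin promoters (in 1.6% of promoters), the TATA box letters TATAAA (12.4%), and GAAANNGAA as found in interferon response elements (7.13%) had no match in this window. The window of the same length before the plasma cell gene Jchain had no match to any of these motifs, the E-box included. A match or its absence describes these letters only.

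The libraries held 1997 to 4093 spots and 48940875 to 91976637 UMIs, with a median of 12736 UMIs per spot in early treated 5m AS and between 17790 and 28433 in the other 5. Levels are given per 1000000 UMIs (CPM) after scaling by trimmed mean of M values (TMM), called scaled CPM, and intervals are 95% exact intervals for counting error, which do not cover differences between animals or sections. Col4a5, the gene altered in the Alport line, was lowest in 5m AS at 3.39 scaled CPM, followed by 5.52 with early treatment, 5.57 with late treatment, 6.55 in 2m AS, 11.9 in WT and 13.2 in the mixed female library. Which part of the gene these UMIs cover was not given. The kidney marker Umod, of the thick ascending limb, was present in every library, at no less than 2214 scaled CPM. Pairs of libraries shared 1361 to 3083 barcodes, which on Visium slides mark positions and recur by design. Space Ranger, the counting software, was at version 1.2.1 for WT and 5m AS but at 1.3.1 for the remaining 4.

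Slpi was high in 1 library, intermediate in a pair of libraries and low in 3. It had 1383 UMIs in early treated 5m AS, 157 in untreated 5m AS, 139 in the mixed female library, 28 in 2m AS, 25 after late treatment and 24 in WT. In scaled CPM these were 24.0 (22.7 to 25.3) in early treated 5m AS, 2.65 (2.25 to 3.10) in 5m AS and 1.99 (1.68 to 2.35) in the mixed female library. The other 3 libraries had 0.380 (0.253 to 0.549) in 2m AS, 0.373 (0.241 to 0.550) in late treated 5m AS and 0.351 (0.225 to 0.522) in WT. The floor of 3 counts lay between 0.0407 and 0.0521 scaled CPM, so even the lowest of these levels was above it. The interval of early treated 5m AS met that of no other library, whereas the intervals of 2m AS, late treated 5m AS and WT lay over each other.

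Early treated 5m AS had 9.06-fold (7.68 to 10.8) the Slpi level of 5m AS, its untreated counterpart of the same age. The ratio was 64.4 (43.4 to 99.9) to late treated 5m AS, 63.1 (43.5 to 95.3) to 2m AS, 68.4 (45.8 to 107) to WT and 12.04 (10.1 to 14.4) to the mixed female library. Among genes at 20 scaled CPM or more in either library of a pair, 1.05% were at least 2-fold higher in early treated than in untreated 5m AS and 1.53% lower. These shares were 0.942% and 0.324% against late treatment, 3.93% and 8.52% against 2m AS, 2.91% and 2.67% against WT, and 3.54% and 5.74% against the mixed female library. A ratio as high as that of Slpi was thus uncommon in each pair, but Slpi was chosen for it. The comparisons with 2m AS, late treated 5m AS and the mixed female library stayed within Space Ranger 1.3.1, and those with 5m AS and WT crossed versions, where group and version cannot be told apart. With 1 library per group, neither more cells with Slpi nor more Slpi RNA per cell can be told apart from the other, and a difference between animals or sections cannot be told apart from the group.

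Among the remaining libraries, 5m AS had 7.54-fold (4.89 to 12.1) the level of WT and 6.97-fold (4.64 to 10.8) that of 2m AS. The comparison with WT stayed within Space Ranger 1.2.1, where 4.86% of genes passed the 2-fold limit upward and 4.16% downward. For this pair the median log2 ratio over all genes was -0.12 with TMM and 0.29 with plain CPM, against 2.92 for Slpi with TMM. Slpi in late treated 5m AS was at a ratio of 0.141 (0.0884 to 0.215) to 5m AS. The late treated level had a ratio of 1.06 (0.582 to 1.94) to WT and 0.980 (0.548 to 1.74) to 2m AS, so at these counts no difference among the 3 low libraries was detectable. The neighbours in the middle of the order, 5m AS and the mixed female library, stood at a ratio of 1.33 (1.05 to 1.68), whose interval lies just above 1.

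**Figure D1:**
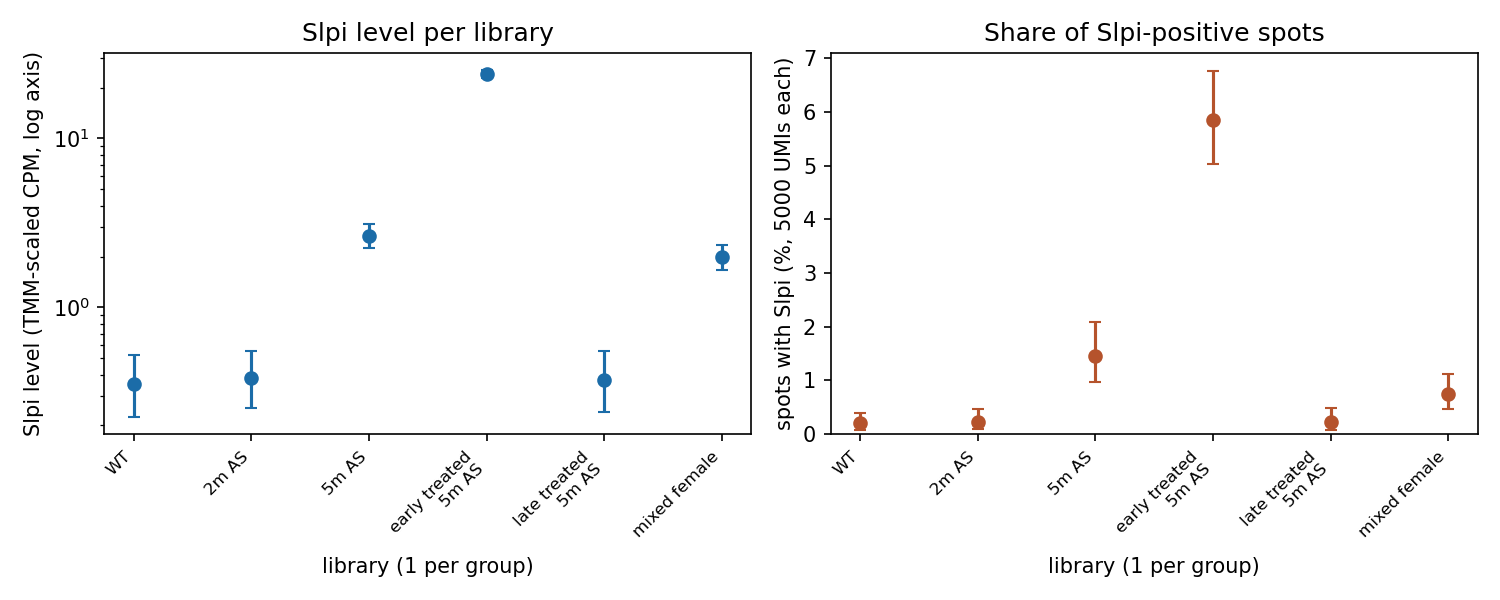
Slpi in the 6 libraries, 1 per group. The left panel gives the level in TMM-scaled CPM on a log axis and the right panel the percent of spots with at least 1 Slpi UMI after each spot was thinned to 5000 UMIs, both with exact 95% counting intervals as bars. Early treated 5m AS is highest in both, at 24.0 scaled CPM and 5.85% of spots.

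Very few genes stood so far above every other library in early treated 5m AS. Of 6262 genes with at least 20 scaled CPM in that library, 4, or 0.0639%, were at least 2-fold above each of the other 5 libraries. Slpi was the second of them, with a ratio of 9.06 to the highest other library. It was chosen for its level in early treated 5m AS, so its place in this order follows from the choice. The other 3 were immunoglobulin heavy-chain genes, which the rule for named genes left out and which were chosen after their values were seen. Ighg2b, the constant region of IgG2b, had a ratio of 11.1, Ighg2c, of IgG2c, 5.05, and Igha, of IgA, 3.44. The next genes that were not immunoglobulin chains lay much closer to the other libraries. They were Psat1, of serine synthesis, at 1.70, the clock gene Per2 at 1.58, Plat, which encodes tissue plasminogen activator, at 1.58, and the lipid enzyme Acsl4 at 1.52. Alas1, of haem synthesis, was at 1.48, Jchain, which joins IgA and IgM into polymers, at 1.43, the chemokine Ccl21a and the complement gene C4b at 1.42 and 1.41, and Acat3 at 1.40.

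The genes with the pattern most like that of Slpi over the 6 libraries included some, but not all, plasma cell transcripts. Likeness was measured as the root mean square difference of log2(scaled CPM + 0.5), centred on each gene's mean, over 6 libraries and 7198 genes. Jchain came first at 0.83, and Igha, the light chain Igkc and Ighg2b, chosen after their values were seen, came next at 0.87, 0.97 and 1.09. Other antibody genes were much less like Slpi, with Ighg2c at rank 141 (1.44), Ighm at rank 3265 (1.77) and the light chain Iglc1 at rank 3935 (1.79). Jchain fell from 38.6 scaled CPM in early treated 5m AS through 27.1 in untreated 5m AS, 16.4 in the mixed female library, 6.32 after late treatment and 4.18 in 2m AS to 2.85 in WT. This is the order of Slpi except that 2m AS and late treated 5m AS change places, over a narrower range. Beyond these, Sdf2l1, an endoplasmic reticulum chaperone gene, had 1.15, the chemokines Cxcl10 and Ccl5 1.17 and 1.18, and the adhesion receptor gene Cd44 1.21.

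Ighg2b stood at 114 scaled CPM in early treated 5m AS, 10.2 in 5m AS, 5.12 in the mixed female library and at most 0.541 in the other 3. Ighg2c stood at 118, 23.3 and 3.24 in the same libraries and at most 0.194 in the other 3. The IgG genes are close copies of each other, and how reads shared between them were counted was not stated. Both were highest where Slpi was highest and lowest in the same 3 libraries. Ighm, the constant region of IgM, went another way, with 171 in untreated 5m AS, 52.9 in the mixed female library, 27.0 after early and 22.7 after late treatment, 10.2 in 2m AS and 6.87 in WT.

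Within early treated 5m AS, most Slpi UMIs lay in a small share of spots. A Slpi UMI was seen in 11.98% (10.9 to 13.1) of its 3549 spots. In the same unthinned counts the share was 5.41% in 5m AS, 2.30% in the mixed female library, 0.830% after late treatment, 0.747% in 2m AS and 0.464% in WT. After each spot was thinned to 5000 UMIs and shallower spots were left out, 5.85% (5.03 to 6.76) of 2923 spots were positive in early treated 5m AS and 1.45% (0.965 to 2.09) of 1932 in 5m AS. The thinned share was 0.742% (0.465 to 1.12) in the mixed female library, 0.229% (0.0920 to 0.471) in 2m AS, 0.226% (0.0830 to 0.492) in late treated 5m AS and 0.199% (0.0859 to 0.392) in WT. Thinning left out 626 spots in early treated 5m AS and 65 to 386 in each of the others. The order of the first 3 libraries was the same for the share as for the level, and the last 3 had overlapping intervals again.

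The positive spots of early treated 5m AS were very unequal. Of its 425 positive spots, 307 held 1 UMI and 17 held 10 or more, and those 17 spots held 751 of the 1383 UMIs. The richest spot held 235 Slpi UMIs among 10805 UMIs of all genes, the next 132 and the third 60. The richest 1% of spots with at least 500 UMIs, 34 spots, held 62.6% of the Slpi UMIs, and the ratio of the variance to the mean over spots was 62.3. Over all spots of that library, each gene's richest 1% of spots held 62.8% of the UMIs of Slpi, 73.8% of those of Ighg2b and 61.0% of those of Ighg2c, but 24.97% of those of the injury gene Lcn2 and 6.78% of those of Wfdc2, another WAP domain gene. Igkc was at 51.5%, Igha at 48.9% and Jchain at 42.7%. Slpi was in this respect nearest to the IgG genes, with Igkc, Igha and Jchain next and those tubular genes farthest. The total counts behind these shares differed, with 1383 UMIs for Slpi and 16396 for Wfdc2.

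In the other libraries the largest count in a spot was 24 in the mixed female library, 18 in 5m AS, 5 in WT, 3 in 2m AS and 2 in late treated 5m AS. The variance to mean ratio was 7.59 in the mixed female library and 4.41 in 5m AS. It was 1.91 in WT, 1.42 in 2m AS and 1.07 in late treated 5m AS, where counts spread evenly by chance have a value of 1. With 24 to 28 Slpi UMIs in each of these libraries, a single spot can move the ratio, so they could not be compared by it. Without the richest spot of each library, Slpi was at 19.9 scaled CPM in early treated 5m AS and 2.35 in 5m AS. Without the richest 1% of spots it was at 9.02 in early treated 5m AS, 1.52 in 5m AS and 0.637 in the mixed female library. The other 3 were then at 0 by construction, since this setting removed all their positive spots. With each spot weighted equally, in place of each UMI, Slpi in early treated 5m AS was at 38.5, since several of its richest spots were shallow, such as 1 with 33 Slpi UMIs among 1669.

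**Figure D2:**
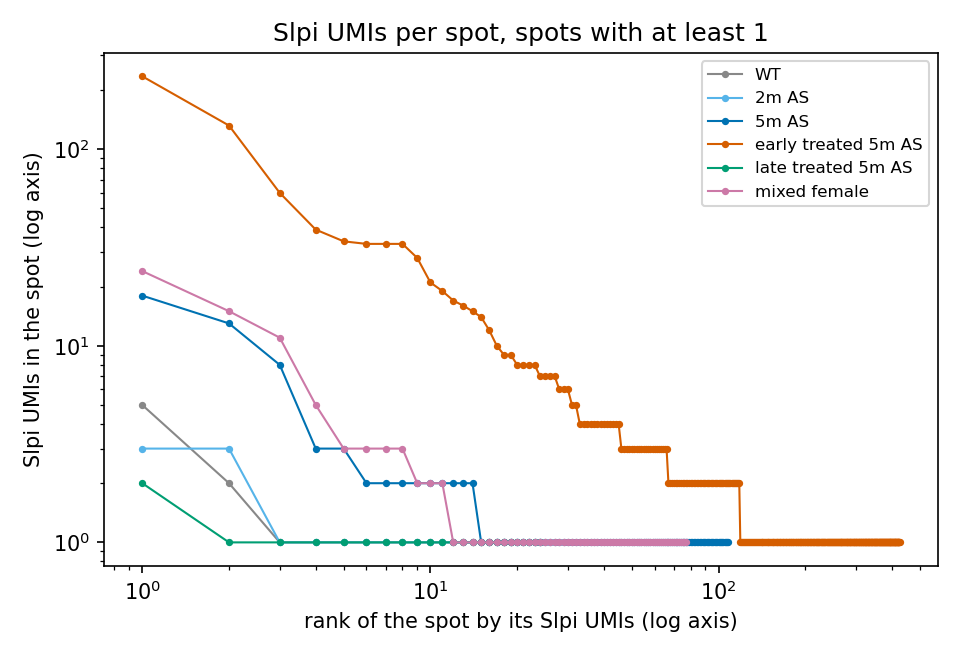
Slpi UMIs in each positive spot, ranked within its library, with both axes on a log scale and 1 line per library. The line of early treated 5m AS starts at 235 UMIs and runs to 425 spots, while the richest spots of the other 5 libraries hold 2 to 24 UMIs.

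The genes that varied with Slpi over spots were those of plasma cells. Pearson's r was computed on log counts per 10000 UMIs over spots with at least 500 UMIs, 3462 in early treated 5m AS and 1992 in 5m AS. These spots share a library and neighbouring spots share tissue, so r describes the sections and has no p. In early treated 5m AS, r was 0.63 for Ighg2c, 0.55 for Ighg2b, 0.51 for Igkc and 0.46 for Jchain. These 4 were all the genes above 0.2 among 11537 genes found in at least 5% of spots, for which the median r was -0.01 and the 99th percentile 0.06. Igha came next at 0.13. The highest gene after the immunoglobulin genes and Jchain was the chemokine Cxcl12 at 0.12, and the lowest r were those of Cd63 at -0.12, Ndrg1 at -0.10 and the proximal tubule phosphate transporter Slc34a1 at -0.09, all weak values in sparse counts. Slpi had an r of -0.03 with the log of the spot's depth.

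In 5m AS the same family of genes led, with r at 0.45 for Ighg2c, 0.36 for Jchain, 0.34 for Igkc, 0.26 for Ighm and 0.23 for Mzb1, a chaperone of antibody-secreting cells. These were its 5 genes above 0.2. Ly6c2, a surface antigen gene of monocytes and some plasma cells, had 0.18 there and 0.30 in early treated 5m AS, where it was in only 3.75% of spots and so below the limit for the ranking, as was Mzb1 with 0.26 in 2.54% of spots. Ighm reached only 0.06 in early treated 5m AS. In the mixed female library r was 0.48 for Jchain, 0.41 for Igkc, 0.30 for Ighm and 0.29 for Igha. In late treated 5m AS, 2m AS and WT, with 24 to 28 Slpi UMIs each, no gene found in at least 5% of spots passed 0.2.

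**Figure D3:**
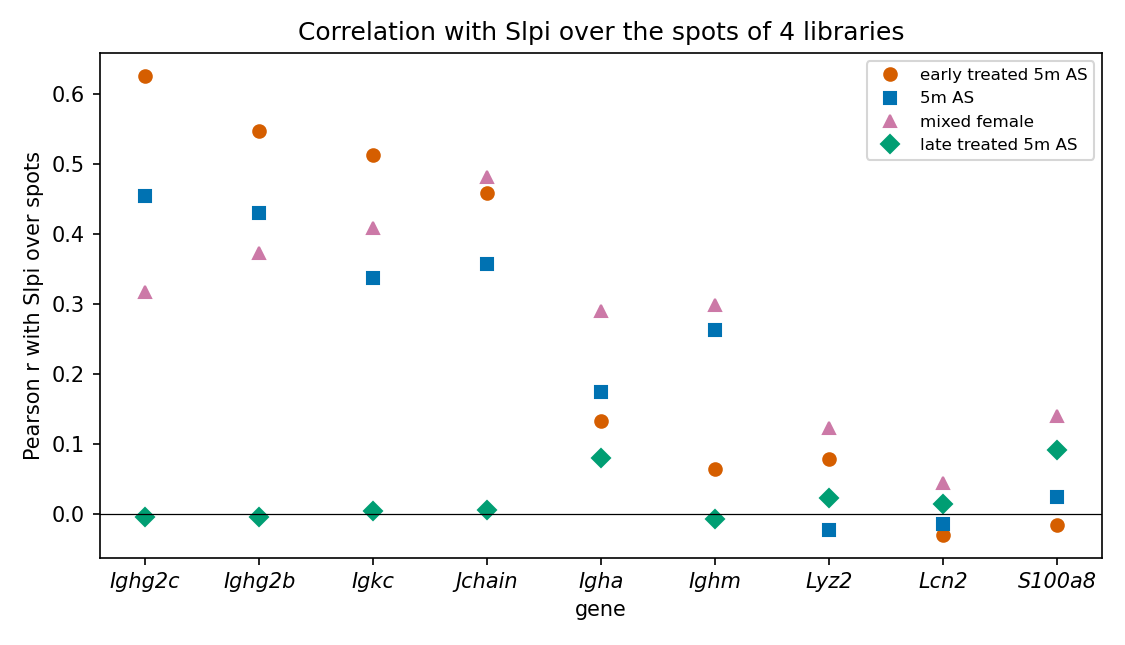
Pearson r with Slpi over the spots of 4 libraries for 9 genes, 1 point per gene and library. Immunoglobulin genes and Jchain stand between 0.06 and 0.63 in early treated 5m AS, 5m AS and the mixed female library, and the myeloid and injury genes Lyz2, Lcn2 and S100a8 at no more than 0.14.

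Spots rich in the markers of a cell type were then compared with the remaining spots of the same library. In early treated 5m AS, the 10% of spots richest in the B and plasma cell list (Cd79a, Cd79b, Ms4a1, Ighm, Igkc, Jchain and Mzb1) had Slpi at 231 scaled CPM and the other spots at 6.44. The ratio was 35.8 (31.7 to 40.6), and 27.8 without the spot of 235 Slpi UMIs. The rich spots held 75.3% of the Slpi UMIs and all 17 spots with at least 10. In 5m AS the same comparison gave 14.8 and 1.36 scaled CPM, a ratio of 10.8 (7.83 to 15.04), with 53.5% of the UMIs. The ratio was 23.7 (16.5 to 34.6) in the mixed female library. In late treated 5m AS it was 1.67 (0.321 to 5.57), with 3 Slpi UMIs in the rich spots. The level outside these spots still differed, at 6.44 in early treated 5m AS, 1.36 in 5m AS, 0.716 in the mixed female library and 0.257 to 0.355 in the other 3.

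The other marker lists gave smaller ratios in early treated 5m AS. Macrophage-rich spots had Slpi at 64.3 against 22.3 scaled CPM, 2.89-fold (2.42 to 3.42), but a share of positive spots of 8.09% against 12.7%, and a median depth of 4514 against 13984 UMIs. Fibroblast-rich spots had 2.07-fold (1.75 to 2.43). Spots rich in urothelial markers had 6.19-fold (5.55 to 6.90), and 3.52-fold without the spot of 235 UMIs, which lies among them. Only 1 of the 10 listed urothelial genes was measured at 5 scaled CPM or more. The list also holds Ly6d, whose r with Slpi over spots was 0.21, and its part in this ratio was not tested. Injured tubule spots had the lowest ratio, 0.274 (0.185 to 0.391), followed by late and early proximal tubule spots at 0.466 and 0.467. For the neutrophil, mesothelial and adipocyte lists the 10% limit fell at 0 marker UMIs, so no spots could be called rich in them.

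The B cell and neutrophil markers in the whole sections were low. Ms4a1, which encodes the B cell antigen CD20, had 16 UMIs in early treated 5m AS and Cd79a 58, against 14290 for Igkc. Of the neutrophil list, 0 of 11 markers reached 5 scaled CPM in early treated or 5m AS. Mpo had 0 UMIs in all 6 libraries, Ly6g had 0 in early treated 5m AS, and S100a8 was at 2.43 scaled CPM there, 2.34 in 5m AS and 5.65 in the mixed female library. Slpi in early treated 5m AS had an r of -0.02 with S100a8 and -0.03 with Lcn2. All 12 macrophage markers were measured, and 0 were at least 1.5-fold higher and 11 lower in early treated than in 5m AS, where 3.98% of all genes were higher and 4.86% lower. Their median log2 ratio was -0.81 against -0.01 over all genes, and the part of macrophages in the Slpi level was not tested. Of the B and plasma cell list 3 of 7 were measured, with 0 higher and 1, Ighm, lower.

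The plasma cell signal was divided by antibody class, a grouping chosen after these values were seen. In each spot the UMIs of Ighm, Ighd, Ighg1, Ighg2b, Ighg2c, Ighg3 and Igha were summed, and a spot with at least 20 was said to be led by IgG, IgA or IgM where that class made up more than 50% of the sum. In early treated 5m AS, 60 spots (1.69%) were IgG-led, 75 IgA-led and 3 IgM-led, and in 6 none led. The IgG-led spots held 885 Slpi UMIs, 64.0% (61.4 to 66.5) of all Slpi in the library, and 16 of the 17 spots with 10 or more. That interval takes UMIs as independent although Slpi UMIs cluster in spots. Without the spot of 235 Slpi UMIs the share was 56.6%, outside the interval. The IgA-led spots held 59 Slpi UMIs, although they were more numerous and their 7634 heavy-chain UMIs were not far below the 9633 of the IgG-led spots.

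Relative to the antibody transcripts, IgG-led spots had 91.9 (85.9 to 98.1) Slpi UMIs per 1000 heavy-chain UMIs and IgA-led spots 7.73 (5.88 to 9.97), a ratio of 11.9 (9.13 to 15.7). Slpi was detected in 53 of the 60 IgG-led spots (88.3%) and in 25 of the 75 IgA-led spots (33.3%), at median depths of 14690 and 16411 UMIs per spot. Counted over all genes' UMIs, Slpi was at 889 scaled CPM in IgG-led and 37.4 in IgA-led spots. The 16 spots in which more than 80% of the heavy-chain UMIs came from Ighg2c had 114 (99.2 to 130) per 1000. The 4 spots dominated in this way by Ighg2b had 104 (77.7 to 136), with 33 of their 53 Slpi UMIs in 1 spot. The intervals take UMIs as independent although Slpi UMIs cluster in spots, so these IgG subclasses could not be compared on so few spots. Among 58 spots just under the limit, with 15 to 19 heavy-chain UMIs, there were 57 Slpi UMIs, and among 27 just above it, with 20 to 24, there were 23.

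Untreated 5m AS had too few IgG-led spots to compare. Its 2 IgG-led spots held 14 Slpi UMIs, 91.5 (50.03 to 154) per 1000 heavy-chain UMIs, but 13 of these came from 1 spot with 129 IgG UMIs, and the other held 1 with 22. The 5m AS spot with the most IgG, 873 UMIs, held 18 Slpi UMIs and was led by IgM, so it is not in that rate. Of the next IgM-led spots by IgG, that with 146 IgG UMIs held 8 Slpi UMIs, that with 84 held 1 and that with 46 held 0. Its 72 IgM-led spots had 6.29 (4.74 to 8.19) per 1000 and its 22 IgA-led spots 4.2 (1.54 to 9.15). The mixed female library had 2 IgG-led spots with 2 Slpi UMIs, 11.2 (1.36 to 40.6) per 1000, and 11.9 (8.57 to 16.2) in 23 IgA-led and 11.5 (8.06 to 15.9) in 23 IgM-led spots. The intervals of these 3 classes overlapped. Late treated 5m AS had no IgG-led spot, and its 21 IgA-led spots held 0 Slpi UMIs among 1670 heavy-chain UMIs, for which the exact interval reaches 2.21 per 1000. WT and 2m AS had no IgG-led spot either, and 11 and 3 IgA-led spots with 1 and 4 Slpi UMIs. How far the number of IgG-led spots accounts for the Slpi level of a library was not tested.

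**Figure D4:**
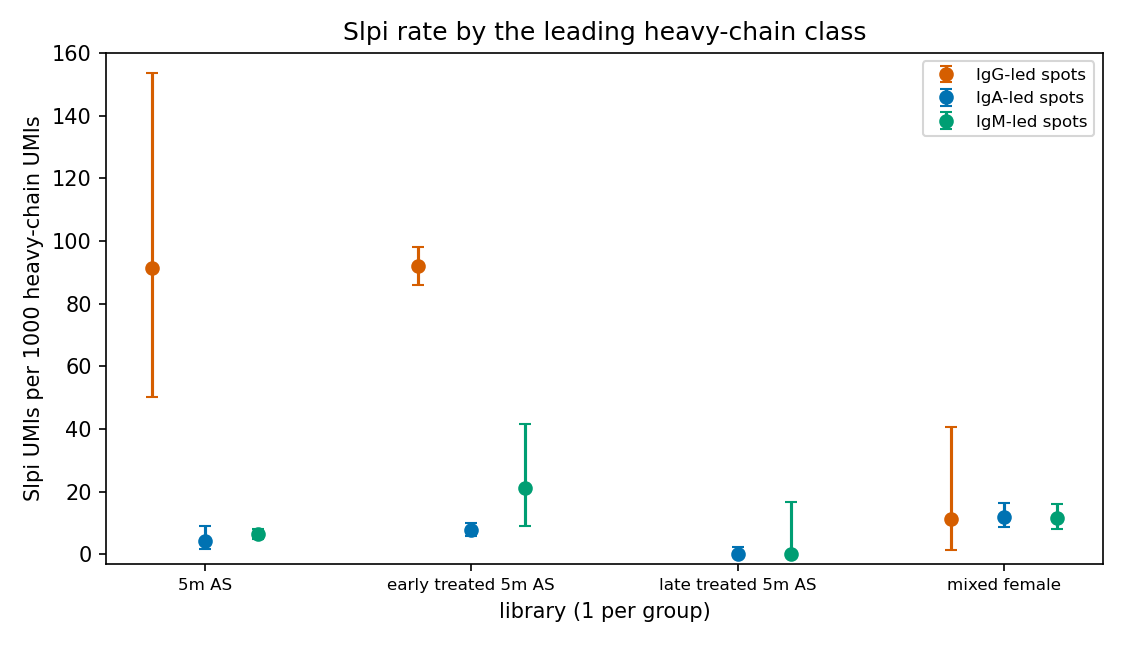
Slpi UMIs per 1000 immunoglobulin heavy-chain UMIs in spots led by IgG, IgA or IgM, in 4 libraries, with exact 95% counting intervals as bars. IgG-led spots stand at 91.9 in early treated 5m AS and 91.5 in 5m AS, where 13 of the 14 Slpi UMIs lie in 1 spot and the spot richest in IgG counts as IgM-led. No other class in these 4 libraries passes 21.1.

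Within the 60 IgG-led spots, Slpi followed the amount of IgG transcript. IgG UMIs ran from 15 to 3141 with a median of 39, and Slpi UMIs from 0 to 235 with a median of 4. Pearson's r of their logs was 0.86 and Spearman's rho 0.77, against an r of 0.75 with Jchain and -0.00155 with the total UMIs of the spot, over the same 60 spots of 1 section. The spot with 235 Slpi UMIs also held the most IgG, with 2107 UMIs of Ighg2b and 1034 of Ighg2c, and the spot with 132 held 922 and 247.

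**Figure D5:**
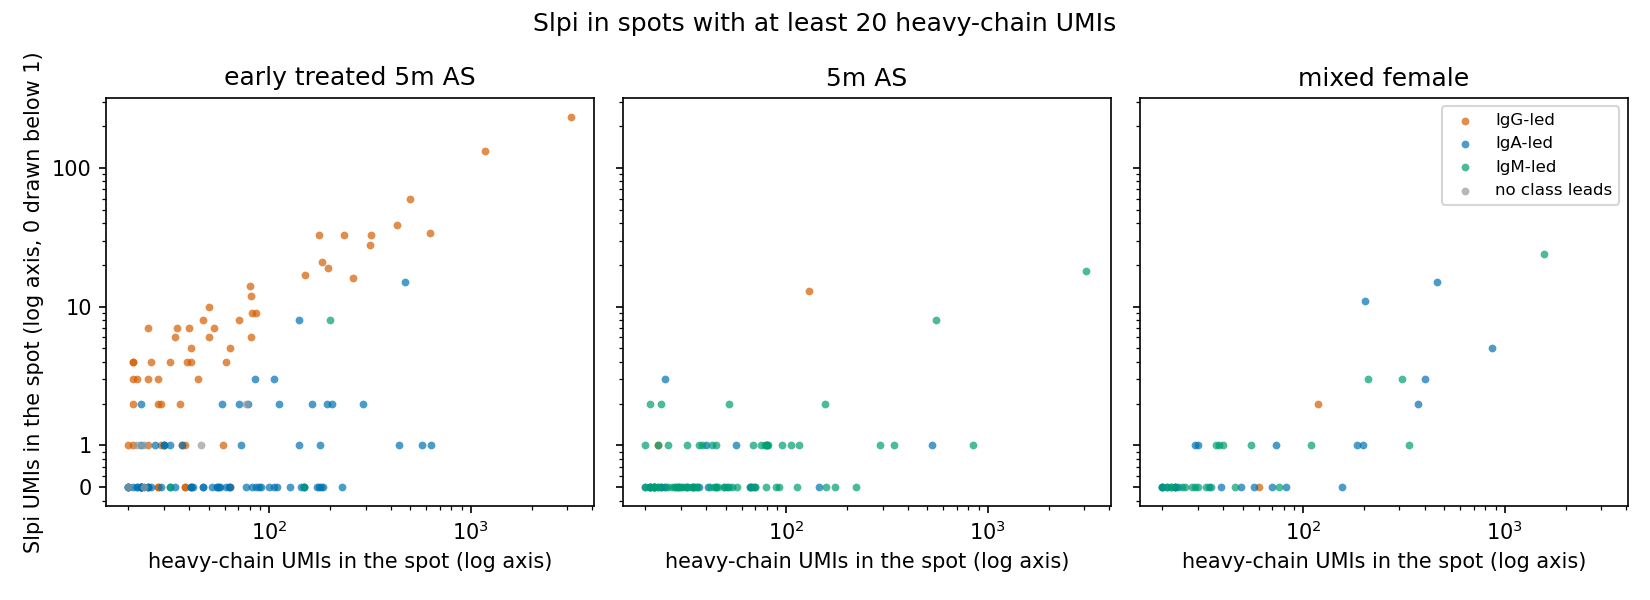
Slpi UMIs against heavy-chain UMIs in each spot with at least 20 heavy-chain UMIs, in early treated 5m AS, 5m AS and the mixed female library, on log axes with 0 drawn below 1 and the leading antibody class as colour. In early treated 5m AS the IgG-led spots climb together to 235 Slpi UMIs, and most IgA-led spots lie at 0 or 1.

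Across 8178 genes, Slpi was the third most enriched in IgG-led over IgA-led spots of early treated 5m AS, by share of all UMIs. Its ratio was 23.7 (18.2 to 31.5), after the class-defining genes Ighg2b at 41.3 and Ighg2c at 32.4. The classes were chosen after the r of Slpi with these genes over the same spots was seen. The rank of Slpi is therefore not separate from that correlation. The next gene that the naming rule kept was Ly6c2 at 10.3 (4.85 to 25.1), then Prg2, which encodes a granule protein, at 6.65 (2.44 to 22.6) on 21 and 5 UMIs. Other genes known from plasma cells had smaller ratios than Slpi, at 1.78 (1.71 to 1.86) for Igkc, 0.897 (0.798 to 1.01) for Jchain and 0.726 (0.321 to 1.54) for Mzb1. Xbp1, a transcription factor of secretory cells that was at 133 scaled CPM even in WT kidney, had 1.12 (0.915 to 1.36). The lambda light chain gene Iglc1, at 0.126, and Igha were at the other end. The neutrophil list was at 4.02 scaled CPM in IgG-led spots and 9.0 in spots with no heavy-chain UMI. That ratio was 0.446 (0.119 to 1.19), an interval that holds 1, so no difference was detectable. The macrophage list was at 1089 and 1035, a ratio of 1.05 (0.987 to 1.12).

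Slpi in early treated 5m AS was also above the other libraries outside the IgG-led spots and in spots with no heavy-chain UMI. Outside the IgG-led spots Slpi was at 8.79 (8.04 to 9.60) scaled CPM in early treated 5m AS and 2.42 (2.04 to 2.85) in 5m AS. This is a ratio of 3.64 (3.02 to 4.42) where the ratio over all spots was 9.06. Such spots could still hold IgG UMIs, as in an IgA-led spot of early treated 5m AS with 107 IgG and 15 Slpi UMIs. In spots with no heavy-chain UMI at all, early treated 5m AS had 33 Slpi UMIs in 857 spots, 3.91 (2.69 to 5.49) scaled CPM. The same kind of spot had 0.851 (0.408 to 1.57) in 5m AS, 0.776 (0.534 to 1.09) in the mixed female library, 0.313 (0.182 to 0.501) in 2m AS, 0.253 (0.138 to 0.424) in WT and 0.203 (0.0659 to 0.474) in late treated 5m AS. Slpi was detected in 3.50% of those spots in early treated 5m AS, at a median depth of 7054 UMIs, and in 2.15% of those in 5m AS, at 22420. Ighg2c itself was detected in 32.5% of all spots in early treated 5m AS and 10.4% in 5m AS, many more than were IgG-led. Whether RNA that spread between spots adds to these low counts was not tested.

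Transcripts of the main protease targets of the SLPI protein were not detected in the sections, and the proteins themselves were not measured. Elane, which encodes neutrophil elastase, and Ctsg, which encodes cathepsin G, had 0 UMIs in all 6 libraries, which allows up to 0.0521 scaled CPM. Prtn3, which encodes the related proteinase 3, was at 1.42 scaled CPM without and 1.09 with early treatment, a ratio of 0.772 (0.548 to 1.08). No member of the lists of neutrophil serine proteases and mast cell proteases reached 5 scaled CPM.

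The list taken for SLPI partners and substrates held Grn, Plscr1, Plscr4 and Anxa2, and also the cathepsin genes Ctsl, Ctsb and Ctss, and Sort1 and Psap. Its genes had ratios much nearer to 1 than Slpi. In early treated against 5m AS, 1 of the 9 listed genes, all measured at 5 scaled CPM or more, was at least 1.5-fold higher and 1 lower. The shares over all genes were the 3.98% and 4.86% given above. The median log2 ratio of the 9 was -0.19, and -0.01 over all genes. Grn, the progranulin gene, was at 199 and 237 scaled CPM, a ratio of 0.840 (0.819 to 0.861). Plscr1, a membrane scramblase that binds SLPI, was at 61.8 and 51.1, a ratio of 1.21 (1.15 to 1.27), and Anxa2, its receptor on macrophages, at 104 and 141, a ratio of 0.734 (0.710 to 0.759). The member past the limit upward was Plscr4 at 1.78 (1.60 to 1.97), named after its value was seen, and downward the cathepsin gene Ctss at 0.660 (0.636 to 0.684).

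Other WAP domain genes did not share the pattern of Slpi. Of the 11 listed, 3 were measured, and in early treated against 5m AS 0 were higher and 2 lower, with a median log2 ratio of -0.96. Wfdc2, an epithelial secreted WAP protein, was at 284 and 554 scaled CPM, a ratio of 0.514 (0.504 to 0.524), and Wfdc17, a myeloid WAP gene, at 25.5 and 50.5, a ratio of 0.505 (0.474 to 0.538). Wfdc15b was at 167 and 232, a ratio of 0.720 (0.701 to 0.739). Against late treated 5m AS, where 3.7% of all genes were higher and 2.02% lower, 1 of these 3 was higher and 0 lower, with a median log2 ratio of 0.34 against 0.02 over all genes.

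Further serine protease inhibitors and epithelial defence genes likewise had no ratio of that size. Among 10 measured inhibitors, 0 were higher and 1 lower in early treated than in 5m AS, namely Serpine2 at 0.595 (0.572 to 0.619), with a median log2 ratio of -0.14, while Serping1 was at 0.675, Spint2 at 0.786 and Serpinb9 at 1.17. Among 16 measured epithelial host defence and NF-kB genes, 1 was higher and 5 lower, with a median of -0.23. The antimicrobial peptide gene Defb1 was at 466 and 224 scaled CPM, a ratio of 2.08 (2.04 to 2.12). Lcn2, which encodes an iron-trapping protein of injured tubules, was at 60.9 and 129, a ratio of 0.472 (0.453 to 0.491), and Lbp, an endotoxin-binding protein gene, at 0.560. Against late treated 5m AS, 4 of the 10 inhibitors and 8 of the 16 defence genes were higher and 0 of either lower, with medians of 0.30 and 0.60. In 5m AS against WT, where 11.9% of all genes were higher and 12.0% lower, 12 of these 16 were higher and 2 lower, and 6 of the 10 inhibitors were higher and 0 lower, alongside the 7.54-fold ratio of Slpi in that pair.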

How the data were processed

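Each library's matrix holds raw UMI counts per gene and spot, deposited by the authors as whole numbers without normalization. Per the file headers, Space Ranger 1.2.1 produced WT and 5m AS, whereas version 1.3.1 produced the remaining 4. The submitters' processing notes name mm10. The annotation and any spot filter were not stated there. Spot positions were not used.

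Counts were summed over spots and scaled with TMM factors (edgeR 4.0.16, R 4.3.3) of 0.801 to 1.18 over 6 libraries. Ratios carry exact 95% intervals for Poisson counts, shares exact Clopper-Pearson ones, and both cover counting error only. Intervals from Slpi UMIs take these as independent, although they clustered in spots. Per-spot work used Python 3.11.15 and spots with at least 500 UMIs for correlations and marker-rich spots. The scripts were tested on simulated data. No test was run, since each group had 1 library. List members below 5 scaled CPM in both libraries of a pair were treated as not measured.

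Besides Slpi, the named genes were those with the likest pattern (5), the largest ratio of early treated to the highest other library (10), the highest and lowest r over spots, and the leading members of the lists. Predicted, ribosomal, mitochondrial, haemoglobin and immunoglobulin genes were outside this rule. Not every gene chosen by it is given. Slpi, the gene lists and the rules were chosen with earlier results of these data known. Alternatives varied scaling, filters, thinning, the share of spots called rich and the measure of correlation.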

Additional observations from a re-analysis of the deposited data

Results flagged for a closer look

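The 2 hEV-treated libraries differed from untreated 5m AS in opposite directions for Slpi. The log2 ratio to 5m AS was 3.18 in early treated 5m AS and -2.83 in late treated 5m AS. The difference between them was not tested, as each group had 1 library, and both ratios share the same 5m AS library.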

How the results depend on the processing

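No paired analysis was possible because each group had 1 library, and no library could be left out. The log2 ratio of Slpi in early treated 5m AS stayed positive under all alternatives run. With each spot weighted equally it was 6.83 to WT, 3.88 to 5m AS and 4.01 to the mixed female library. It was 3.92 to the mixed female library with plain CPM and 2.57 to 5m AS without the richest 1% of spots. The latter setting gave no ratio to WT, 2m AS or late treated 5m AS, which were at 0 because it removed all their positive spots.

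Genes at least 2-fold higher and lower in early treated 5m AS, with no filter beyond 3 counts, numbered 2285 and 1063 against WT (195 and 179 as reported), 2392 and 1954 against 2m AS (264 and 572), 822 and 1004 against 5m AS (69 and 101), 839 and 635 against late treated (61 and 21) and 2030 and 1762 against the mixed female library (236 and 383). In 5m AS against WT they were 2906 and 1348 (330 and 283). With a filter of 5 scaled CPM they were 547 higher against WT, 721 higher against 2m AS, 120 and 166 against 5m AS, 104 and 39 against late treated, 566 and 577 against the mixed female library, and 813 higher in 5m AS than in WT. With plain CPM they were 459 and 45 against WT, 1075 and 109 against 2m AS, 561 and 143 against the mixed female library, and 570 and 95 in 5m AS against WT.

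The share of spots with Slpi depends on depth by construction. At 2000 UMIs per spot it was 2.87% in early treated 5m AS, 0.355% in 5m AS, 0.417% in the mixed female library, 0.0735% in WT, 0.0358% in late treated 5m AS and 0% in 2m AS. At 10000 it was 9.70%, 2.62% and 1.19% in the first 3 and 0.494% in late treated 5m AS. With at least 2 UMIs it was 1.16%, 0.104% and 0.101% in the first 3 and 0% in the others. Not thinned, it was 11.98%, 5.41%, 2.30%, 0.464% in WT, 0.830% in late treated 5m AS and 0.747% in 2m AS. Early treated 5m AS was highest in all of these.

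With genes found in at least 1% of spots, 11 genes passed an r of 0.2 in early treated 5m AS and 11 in 5m AS. Alternatives added after seeing the data moved the IgG results. The share of Slpi UMIs in IgG-led spots of early treated 5m AS was 70.9% with at least 10 heavy-chain UMIs, 57.2% with at least 50, 61.0% where the leading class needed 80% and 56.6% without the richest spot, where the rate was 100.3 Slpi UMIs per 1000 heavy-chain UMIs.

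Ratios of marker-rich to other spots that changed sides of 1 were those of thin limb spots in early treated 5m AS (2.58, and 0.542 for the top 5%), podocyte spots there (0.648, and 1.25 for the top 20% or 1.03 with each marker weighted equally), mesothelial spots there, whose limit fell at 0 marker UMIs (2.35, and 0.603 without the richest spot) and late proximal tubule spots in 5m AS (0.539, and 1.11 for the top 20%). The cause was not tested. Of all alternative values, 606 stayed within their limits, 298 moved and 5 changed sides. With 24 to 28 Slpi UMIs in WT, 2m AS and late treated 5m AS, differences among them or between their spots were not detectable at this depth.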

Other observations

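The antibody classes of the sections differed between libraries beyond the IgG genes given above, in genes chosen after their values were seen. Igha was at 214 scaled CPM in early treated 5m AS, 62.2 in the mixed female library, 54.99 after late treatment, 44.8 in untreated 5m AS, 16.0 in WT and 15.2 in 2m AS. Iglc1, a lambda light chain gene, was at 41.8 in early treated 5m AS, 22.5 in the mixed female library and 0.827 in 5m AS. Igkc, the kappa light chain, was at 248 after early treatment and 229 without.

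Most positive spots held fewer than 20 heavy-chain UMIs, as did most spots of every library. In early treated 5m AS, 342 of 425 positive spots and 3405 of all 3549 spots lay under that limit. In 5m AS these were 75 of 108 and 1901 of 1997, and in the mixed female library 57 of 77 and 3304 of 3352. They were 22 of 24 and 3208 of 3212 in 2m AS, and 18 of 19 and 4082 of 4093 in WT. In late treated 5m AS they were all 24 and 2867 of 2892. Of the spots under the limit in early treated 5m AS, 10.0% had Slpi, against 88.3% of IgG-led and 33.3% of IgA-led spots. The richest Slpi spot of WT held 5 UMIs, with 2 UMIs of Ighm and 0 of the other immunoglobulin genes looked at. In the mixed female library, 1 spot with 3 Slpi UMIs held 26 UMIs of the neutrophil gene S100a8 and 1 of Ighm. The richest spot of that library, with 24 Slpi UMIs, held 1217 UMIs of Ighm and 238 of Ighg1.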
